A study of Homo sapiens with 12 samples.

Results

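The genes described here are 52 listed genes of mitosis and the spindle, which encode mitotic cyclins, kinases, kinetochore and spindle proteins, condensin subunits and proteins of cytokinesis. Their symbols were matched to the Ensembl identifiers of the count table, and each of the 52 matched 1 of the 60107 identifiers. RNA was taken from cells of 2 lines labeled U251P and U251T. The study describes U251, an established human glioblastoma line, and what the letters P and T stand for was not given in the sources used here. Each line had 3 libraries from cells given DMSO as the vehicle and 3 from cells given carmofur, a fluorouracil derivative that inhibits acid ceramidase. In all 4 groups the cells were starved of serum for 16 h and then kept for 24 h in full medium with 10% FBS. The labels place the agent in those final 24 h, whereas the study's methods place carmofur in the starvation period too. The comparison answers how the genes differed between carmofur and vehicle in each line.

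Progress through mitosis is driven by CDK1 bound to A- and B-type cyclins. Kinases such as PLK1 and the Aurora kinases then build the spindle, and the spindle checkpoint holds the anaphase promoting complex in check until every kinetochore is attached to microtubules. Most of these genes are transcribed mainly in G2 phase and mitosis, so that their RNA is abundant in dividing cultures and low in cells at rest, and glioblastoma lines in culture normally express them.

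Libraries were made with QuantSeq, a kit that sequences from the poly(A) end, so that a long transcript is not counted more often than a short transcript. Transcript length therefore does not bar setting levels side by side between genes. In U251T such comparisons are uncertain where copies of a gene could share its reads. Levels are given as CPM, which are counts per 1000000 counts of the library. Total counts were 5064504, 3295045 and 5263645 in U251P vehicle replicates 1, 2 and 3, and 6350873, 5952838 and 4144841 in the U251P carmofur replicates. They were 1300727, 2817379 and 566061 in U251T with vehicle and 969763, 1078340 and 383633 in U251T with carmofur. The U251T libraries were thus all shallower than the U251P libraries, and a count of 0 in U251T carmofur replicate 3 allows a level of up to 7.82 CPM (3 counts; counting error only). The study's methods describe its experiments in general as done in biological triplicate with technical replicates, and the labels do not say which kind the 3 libraries of a group are, so that p-values measure the spread between these libraries.

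The U251T libraries stood apart from those of U251P in genes that mark the cells. The 10 genes chosen for glioma line identity summed to 4199 to 5194 CPM in U251P and 8415 to 14799 CPM in U251T, with VIM as the most abundant in both lines. NES, an intermediate filament gene of neural progenitors, was at 376 to 459 CPM in U251P and 0 to 2.61 CPM in U251T, and S100B was at 0 in all 6 U251T libraries. B2M, the light chain of MHC class I that nearly every human cell expresses, was at 1544 to 1942 CPM in U251P and 0.769 to 15.6 CPM in U251T. The 7 genes of that surface and housekeeping list, led by GAPDH in U251P and by ACTB in U251T, summed to 5900.0 to 7259 CPM and 433 to 686 CPM. Counts on mitochondrial genes made up 19.5 to 26.2% of U251P libraries and 0.354 to 0.881% of U251T libraries, and counts on annotated pseudogenes 0.272 to 0.307% and 10.8 to 12.4%. Of the identity genes tested in vehicle 6 were lower and 3 (VIM, GFAP and FN1) higher in U251T than in U251P by edgeR, and all 7 of the surface and housekeeping genes were lower. Over all 12047 genes tested in this comparison 47.6% were called lower and 39.3% higher. Whether the U251T libraries hold RNA of the cells named in their labels was not tested, nor how well their reads match human genes. Their levels and each comparison between the lines rest on both. A low U251T level is a low count and need not mean little RNA of the gene.

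The 4 fibroblast genes summed to 18.8 to 23.5 CPM in U251P and 1738 to 2382 CPM in U251T, with COL1A1 as the most abundant in U251T and LUM at 0 in all 12 libraries. The 5 immune genes summed to 1.45 to 3.70 and 8.52 to 21.2 CPM, led by CD68 in U251T, with CD3E at 0 in all 12 libraries. The 3 endothelial genes summed to at most 0.927 CPM in any library, with VWF at 0 throughout. The 3 neuron genes summed to 10.6 to 20.0 and 1.06 to 33.0 CPM. The 3 oligodendrocyte genes summed to 3.34 to 4.88 CPM in U251P. In U251T they were at 0 in each vehicle library and summed to 0, 2.78 and 2.61 CPM in carmofur replicates 1, 2 and 3. The 3 epithelial genes, led by KRT18 in U251P, summed to 109 to 163 and 4.26 to 16.1 CPM. The sum of the fibroblast genes was higher in each U251T carmofur library than in each U251T vehicle library (2299.5 to 2382 against 1738 to 2044 CPM), as was that of the neuron genes (16.7 to 33.0 against 1.06 to 14.6 CPM), and the sum of the identity genes was lower. The neuron sums rest on few counts, and 0 of the 3 neuron genes had enough counts to be tested in U251T. Single genes went both ways in U251T, where 8.2% of all 7204 genes tested were called lower and 8.88% higher. VIM and GFAP were called lower and FN1 and CD44 higher among the 5 identity genes tested, and COL1A1 was the 1 called, higher, of 3 fibroblast genes. The part of these genes in the results on mitosis genes was not tested.

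Taken as a sum, the 52 genes stood at 16667, 15997 and 15821 CPM in the U251P vehicle libraries and at 15638, 15976 and 15762 CPM in the U251P carmofur libraries. In U251T the sum was 14295, 14170.3 and 14518 CPM with vehicle and 4354, 3652 and 3376 CPM with carmofur. All 3 carmofur libraries of U251T were therefore far below the other 9 libraries, while the U251P groups differed by less than the distance to U251T. The group means were 16162 ± 446 and 15792 ± 171 CPM in U251P, and 14328 ± 176 and 3794 ± 504 CPM in U251T (vehicle and carmofur, SD, n = 3). The lowest sum, in U251T carmofur replicate 3, had a 95% Wilson interval of 3197 to 3564 CPM. U251T vehicle replicate 3, which was shallower than U251T carmofur replicates 1 and 2, was at 14518 CPM, and the part of depth in the sums was not tested. Without the 5 most abundant genes of the list, the U251T sums were 7956, 7787 and 8084 CPM with vehicle and 2389, 2029 and 1877 CPM with carmofur. In libraries made from whole cultures, fewer cells in mitosis and less RNA of these genes per cell cannot be told apart.

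**Figure D1:**
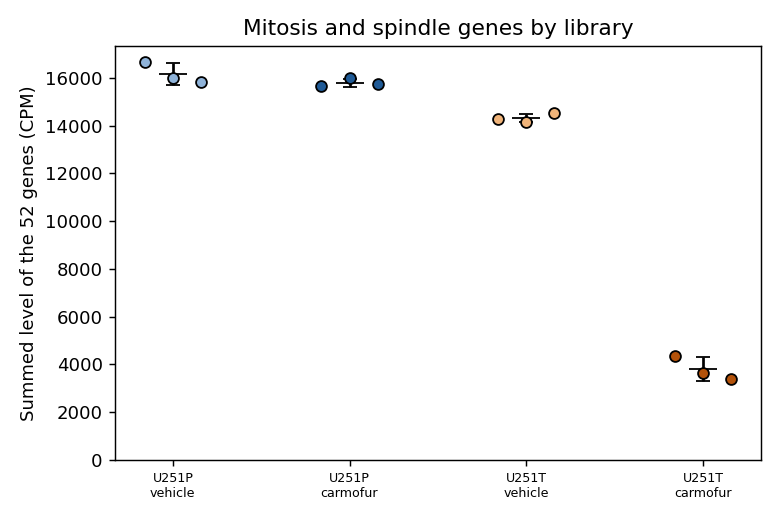
Summed level of the 52 genes in CPM in each library (points), with the group mean and SD (line and bars, n = 3). The 3 U251T carmofur libraries lie between 3376 and 4354 CPM, below the other 9.

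In U251P, edgeR (a quasi-likelihood F test over 11426 genes, with p-values adjusted by the method of Benjamini and Hochberg) called 0 of the 52 genes higher and 0 lower with carmofur at an adjusted p under 0.05, beside 0% of all genes tested in either direction. An unadjusted p under 0.05 was reached by 0 of the 52 and by 402 of all genes, and DESeq2 called 0 of the 52 as well. The median log2 fold change was 0.01 for the 52 genes and -0.00 for all genes tested. Carmofur and vehicle libraries did not overlap in 4 of the 52 on the lower side, namely CDK1, BUB1, INCENP and TPX2 (5.5% of all genes tested), and in NUF2 on the higher side (3.04% of all genes tested). These shares are near the background. The 95% intervals of the 52 log2 fold changes lay between -0.38 (ESPL1) and 0.51 (RACGAP1). They use normal quantiles, which are too narrow for 3 libraries against 3, and set no firm bound on larger changes.

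The largest positive values in U251P belonged to UBE2C, RACGAP1 and CDCA8. UBE2C, the ubiquitin-conjugating enzyme of the anaphase promoting complex, was at 113, 151 and 111 CPM with vehicle and 161, 143 and 129 CPM with carmofur. RACGAP1, part of the centralspindlin complex, was at 46.99, 35.2 and 35.1 CPM with vehicle and 46.8, 48.5 and 37.6 CPM with carmofur. CDCA8, the borealin subunit of the chromosomal passenger complex, was at 159, 116 and 128 CPM with vehicle and 156, 155 and 138 CPM with carmofur. In each of the 3 genes the groups overlapped, and the log2 fold changes were 0.24, 0.21 and 0.18. At the other end were NCAPH, a condensin I subunit, the cyclin CCNB2 and SPC25 of the NDC80 complex. NCAPH was at 87.3, 106 and 78.8 CPM with vehicle and 83.6, 80.3 and 75.5 CPM with carmofur. CCNB2 was at 97.1, 100.5 and 85.3 CPM with vehicle and 89.8, 77.1 and 84.9 CPM with carmofur, and SPC25 at 52.1, 49.8 and 53.0 CPM with vehicle and 51.96, 42.3 and 44.6 CPM with carmofur. Their groups overlapped too, and the log2 fold changes with their standard errors (SE) were -0.15 (SE 0.117), -0.14 (SE 0.106) and -0.13 (SE 0.124), each with an adjusted p of 0.999 from edgeR.

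The most abundant members in U251P had like levels in both groups. TOP2A, the topoisomerase that untangles sister chromatids, was at 2144, 1867 and 2148 CPM with vehicle and 1969, 1659 and 2053 CPM with carmofur. CENPF, a large kinetochore protein, was at 1589.9, 1733 and 1743 CPM with vehicle and 1405, 1660.4 and 1706 CPM with carmofur. MKI67, the Ki-67 protein of the chromosome surface, was at 1760.5, 1651 and 1841 CPM with vehicle and 1594, 1928 and 1791 CPM with carmofur. In all 3 genes the lowest library was a carmofur library, and the groups overlapped. FOXM1, the transcription factor of the G2 and mitosis genes, was at 72.7, 56.1 and 56.6 CPM with vehicle and 65.5, 59.6 and 49.0 CPM with carmofur. AURKA, a centrosomal kinase, was at 227, 191 and 218 CPM with vehicle and 226, 218 and 195 CPM with carmofur, and BIRC5, the survivin subunit of the chromosomal passenger complex, at 334, 321 and 283 CPM with vehicle and 321, 318 and 276 CPM with carmofur. The vehicle and carmofur ranges overlapped in these 3 genes as well.

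In U251T, 45 of the 52 genes had enough counts to be tested, and carmofur lowered nearly all of them. By edgeR, 42 of the 45 were lower with carmofur at an adjusted p under 0.05, beside 8.2% of the 7204 genes tested, and 0 were higher, beside 8.88%. The median log2 fold change of the 45 was -2.00, and that of all genes tested was 0.01. In 44 of the 45 each carmofur library was below each vehicle library, beside 16.5% of all genes tested, and in 0 each was above, beside 15.8%. The exception was RACGAP1. A gene could pass the filter through the vehicle libraries alone. Of the 26 genes with at least 10 counts in each of the 6 libraries 26 were called lower, beside 478 lower and 494 higher of 4766 genes in all. Without the shallowest library of each U251T group, an alternative chosen after seeing the data, 40 of the 45 were called lower. Of 7575 genes in all, 343 were lower and 359 higher there.

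**Figure D2:**
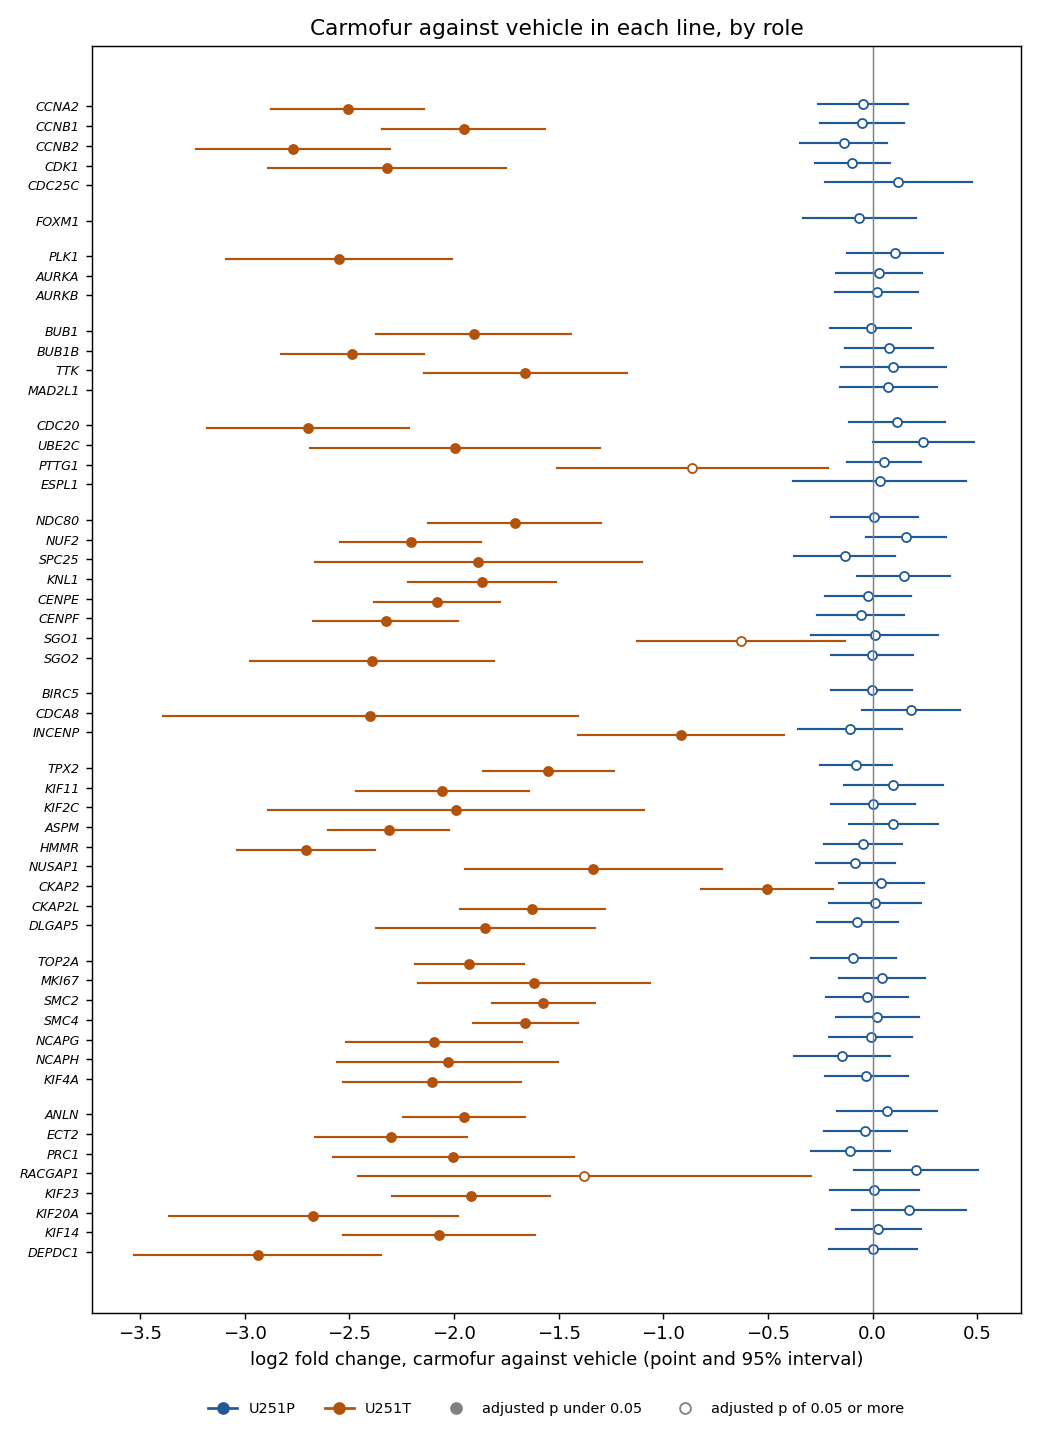
Log2 fold change of carmofur against vehicle for each gene, ordered by role, in U251P (blue) and U251T (orange), with the 95% interval; filled points have an adjusted p under 0.05 and genes not tested in U251T have no orange point. All U251P points lie between -0.15 and 0.24, and the U251T points between -2.94 and -0.50.

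Since the genes moved together, the sequence around their starts was read. RefSeq promoters on GRCh38.p14, 300 bases from 250 before to 50 after a transcript start, were listed for 44 of the 52 genes, with 54 starts in all. AURKA, BIRC5, FOXM1, KNL1, RACGAP1, TPX2, TTK and UBE2C had no entry. The search was made after the values of the genes were seen. Both strands were searched for CCAAT, the box that NF-Y binds, and for TTTGAA or TTCGAA, the letters of the cell cycle genes homology region (CHR) that the MuvB complexes bind. A CHR-type match was present in 37 of the 54 promoters (68.5%), against 16.4% of all 35116 promoters, and CCAAT in 39 (72.2%), against 34.6%. Both motifs were present in 29 promoters (53.7%), against 6.38% of all promoters. In the promoters of the genes tested in U251T the shares were 13.1% for the CHR type, 35.2% for CCAAT and 5.47% for both. In the same order the shares were 57.8%, 65.6% and 48.4% for a list of other mitosis genes, 6.9%, 55.2% and 5.17% for genes of DNA replication and S phase, 22.5%, 49.3% and 7.04% for regulators of mitotic entry and exit, and 25%, 50% and 8.33% for cohesin genes. Of the CHR-type matches in the 54 promoters, 35 of 51 (68.6%) began within the 100 bases around the start (-50 to 50), against 27.3% in all promoters. Of the CCAAT matches, 52 of 78 (66.7%) there began between 150 and 50 bases before it, against 47.4%. The letters TTTAAA were searched as well and not counted as a CHR match, and were in 17 of the 54 promoters (31.5%) and in 12.2% of all promoters. Matches of the 2 motifs overlapped in 2 promoters, those of CDCA8 and MKI67. A match describes the letters in the window and not a bound site.

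Promoters are shown for the 3 genes with the smallest p in U251T (HMMR, ASPM and TOP2A), for the called gene with the smallest fall (CKAP2), and for the cyclin CCNB2 and the kinase PLK1, which were chosen after their values were seen. The capitals mark matches of CCAAT or the CHR letters on either strand, and each promoter is printed 5′ to 3′ on the strand of its gene. The windows are chr5:163460382-163460681 (plus strand) for HMMR, chr1:197146620-197146919 (minus) for ASPM, chr17:40417847-40418146 (minus) for TOP2A, chr13:52455738-52456037 (plus) for CKAP2, chr15:59104896-59105195 (plus) for CCNB2 and chr16:23678639-23678938 (plus) for PLK1.
HMMR: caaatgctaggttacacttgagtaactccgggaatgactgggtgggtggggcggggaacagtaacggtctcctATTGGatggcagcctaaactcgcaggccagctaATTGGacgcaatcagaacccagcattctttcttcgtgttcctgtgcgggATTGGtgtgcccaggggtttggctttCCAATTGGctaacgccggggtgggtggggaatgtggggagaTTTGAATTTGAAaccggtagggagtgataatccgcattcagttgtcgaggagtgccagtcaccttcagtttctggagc
ASPM: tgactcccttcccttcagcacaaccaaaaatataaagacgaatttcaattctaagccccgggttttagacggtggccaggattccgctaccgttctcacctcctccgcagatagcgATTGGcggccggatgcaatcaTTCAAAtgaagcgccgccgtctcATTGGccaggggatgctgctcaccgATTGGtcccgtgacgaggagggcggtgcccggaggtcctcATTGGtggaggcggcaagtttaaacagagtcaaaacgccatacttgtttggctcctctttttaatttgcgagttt
TOP2A: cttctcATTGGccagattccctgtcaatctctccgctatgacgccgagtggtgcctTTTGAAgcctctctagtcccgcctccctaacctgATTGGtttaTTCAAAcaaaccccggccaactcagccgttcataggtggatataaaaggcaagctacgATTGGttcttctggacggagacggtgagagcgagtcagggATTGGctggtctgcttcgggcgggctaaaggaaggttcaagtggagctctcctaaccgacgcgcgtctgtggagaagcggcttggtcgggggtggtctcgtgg
CKAP2: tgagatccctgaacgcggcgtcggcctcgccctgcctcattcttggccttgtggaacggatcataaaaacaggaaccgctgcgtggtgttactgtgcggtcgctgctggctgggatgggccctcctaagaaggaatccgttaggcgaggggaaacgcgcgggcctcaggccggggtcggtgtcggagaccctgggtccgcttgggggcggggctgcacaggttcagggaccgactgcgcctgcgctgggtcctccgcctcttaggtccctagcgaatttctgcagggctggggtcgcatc
CCNB2: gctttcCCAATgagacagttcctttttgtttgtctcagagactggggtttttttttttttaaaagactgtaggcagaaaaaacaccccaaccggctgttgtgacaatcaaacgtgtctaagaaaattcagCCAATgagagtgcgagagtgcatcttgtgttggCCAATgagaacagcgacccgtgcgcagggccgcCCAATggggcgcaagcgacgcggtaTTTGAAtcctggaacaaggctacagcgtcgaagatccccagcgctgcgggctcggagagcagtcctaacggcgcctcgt
PLK1: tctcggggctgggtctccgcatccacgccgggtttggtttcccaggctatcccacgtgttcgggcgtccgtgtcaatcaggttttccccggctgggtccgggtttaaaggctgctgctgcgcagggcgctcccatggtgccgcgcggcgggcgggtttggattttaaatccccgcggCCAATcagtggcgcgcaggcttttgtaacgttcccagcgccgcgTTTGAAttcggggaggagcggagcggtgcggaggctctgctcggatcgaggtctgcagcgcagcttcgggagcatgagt
CCNB2 and PLK1 each had a TTTGAA beginning 29 bases before the start. PLK1 had a single CCAAT, at 73 bases before it, and CCNB2 had 4, of which the nearest was at 54 bases. HMMR had 2 adjoining copies of TTTGAA, at 28 and 22 bases before the start, and 5 CCAAT matches, of which 2 overlapped each other. ASPM had 4 CCAAT matches and a TTTGAA at 113 bases before the start, and TOP2A had 4 CCAAT matches and TTTGAA at 194 and 151 bases before it. The CKAP2 window had no match of either motif.

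In U251T the median log2 fold change was -2.06 for the 24 tested genes with both motifs in a promoter, -2.03 for the 9 with no CHR-type match and -1.99 for the 3 with neither motif (CENPE, CKAP2 and KIF2C). The last 3 ranged from -2.08 to -0.50, and whether genes with and without these letters differ was not tested.

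**Figure D3:**
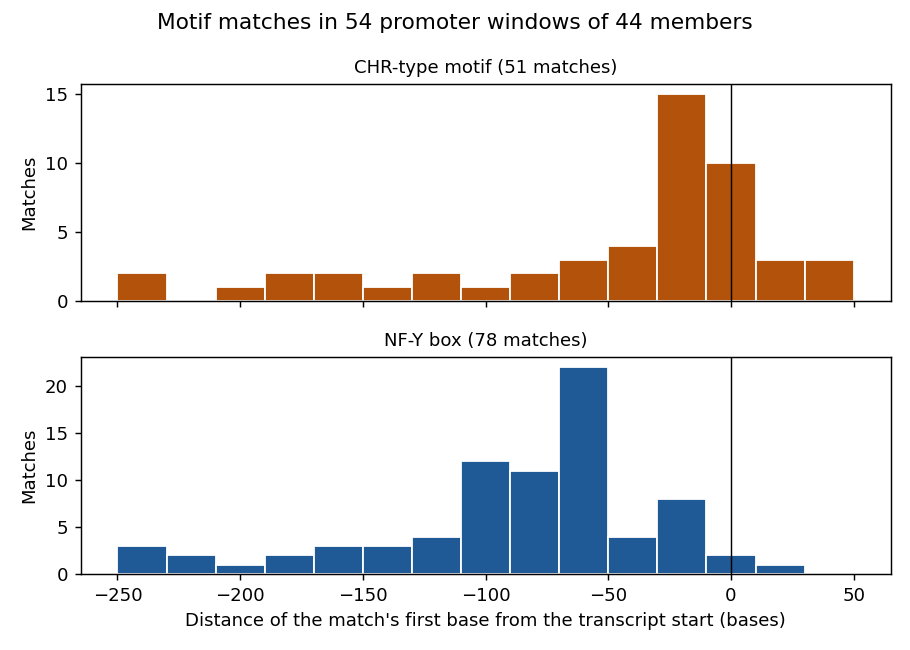
Number of matches of the CHR type (top) and of the NF-Y box (bottom) by the distance of their first base from the transcript start, in bins of 20 bases, over 54 promoters of 44 genes. The 51 CHR-type matches are densest just before the start and the 78 NF-Y boxes lie further upstream.

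Among the cyclins and their kinase, 4 of 5 genes were tested in U251T. All 4 were called lower, beside 8.2% of all genes tested, with log2 fold changes from -2.77 to -1.95. CCNA2, the A-type cyclin of S and G2 phase, was at 236, 285 and 240.3 CPM with vehicle and 50.5, 41.7 and 41.7 CPM with carmofur. CCNB1, which brings CDK1 into mitosis, was at 204, 228 and 208 CPM with vehicle and 73.2, 46.4 and 41.7 CPM with carmofur. CCNB2, a B-type cyclin of the Golgi and cytoplasm, was at 229, 241 and 169.6 CPM with vehicle and 42.3, 28.7 and 18.2 CPM with carmofur, a level 6.82-fold lower in the fit. In each of these cyclins the lowest vehicle library was above the highest carmofur library. The log2 fold change of CCNB2 was -2.77 (SE 0.237) with an adjusted p of 3.19e-07, and that of CCNA2 was -2.51 (SE 0.186) with an adjusted p of 8.28e-08. CDK1, the kinase itself, was at 49.2, 61.8 and 61.8 CPM with vehicle and 13.4, 10.2 and 10.4 CPM with carmofur. Its vehicle level in U251T was below its U251P levels, which lay between 258 and 306 CPM. CDC25C, the phosphatase that activates CDK1, had too few counts to be tested, with counts of 1, 9 and 2 with vehicle and 1, 0 and 0 with carmofur.

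FOXM1 was not tested in U251T either, with counts of 10, 49 and 3 with vehicle and 5, 2 and 0 with carmofur. It was called lower in the fit with no filter on low counts (-2.11, adjusted p = 0.0103) and in that of all 12 libraries (-2.21, adjusted p = 0.0091). PLK1, the kinase of centrosome maturation and mitotic entry, was at 119.9, 220.4 and 141 CPM with vehicle and 23.7, 33.4 and 26.1 CPM with carmofur. Vehicle replicate 2 was the highest PLK1 library, and no carmofur library came near the vehicle range. The fit gave PLK1 a log2 fold change of -2.55 (SE 0.275), at an adjusted p of 4.72e-06. AURKA and AURKB, the Aurora kinases of centrosomes and of the chromosomal passenger complex, had counts too low for the test. They were 6, 4 and 1 with vehicle and 2, 0 and 3 with carmofur for AURKA, and 14, 23 and 4 with vehicle and 3, 5 and 3 with carmofur for AURKB.

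The 3 checkpoint genes tested in U251T, which encode kinases or kinase-like proteins, were all called lower, beside 8.2% of all genes tested. Their log2 fold changes ran from -2.49 to -1.66. BUB1, a kinetochore kinase, was at 129, 80.9 and 115 CPM with vehicle and 26.8, 29.7 and 28.7 CPM with carmofur. BUB1B, the BubR1 protein of the mitotic checkpoint complex, was at 271, 279.7 and 288 CPM with vehicle and 56.7, 49.1 and 39.1 CPM with carmofur. TTK, the MPS1 kinase that starts checkpoint signaling, was at 119.9, 102 and 139.6 CPM with vehicle and 37.1, 26.0 and 60.0 CPM with carmofur. No carmofur library reached the vehicle range in these genes, and TTK carmofur replicate 3 was well above the other carmofur libraries of TTK. For BUB1B the log2 fold change was -2.49 (SE 0.174) and the adjusted p 5.29e-08. MAD2L1, which binds CDC20 when the checkpoint is on, was not tested, with counts of 4, 21 and 1 with vehicle and 0, 2 and 1 with carmofur.

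Of the genes that start anaphase, CDC20 and UBE2C were called lower, beside 8.2% of all genes tested. CDC20, the activator of the anaphase promoting complex, was at 278, 466 and 258 CPM with vehicle and 45.4, 60.3 and 52.1 CPM with carmofur, which is 6.49-fold lower. UBE2C was at 30.8, 38.7 and 45.9 CPM with vehicle and 13.4, 6.49 and 7.82 CPM with carmofur. The log2 fold changes were -2.70 (SE 0.245) for CDC20 with an adjusted p of 7.44e-07, and -2.00 (SE 0.353) for UBE2C with an adjusted p of 0.000655. Neither gene's groups overlapped. PTTG1, the securin that holds separase inactive, was at 24.6, 29.1 and 24.7 CPM with vehicle and 13.4, 13.0 and 20.9 CPM with carmofur. Its log2 fold change of -0.86 (SE 0.330) had an adjusted p of 0.0831 and was not called, although each carmofur library was below each vehicle library. PTTG1 was called with the replicate block (adjusted p = 0.0474) and with all 12 libraries in a single fit (0.02). ESPL1, separase itself, had counts of 3, 11 and 2 with vehicle and 1, 1 and 0 with carmofur and was not tested.

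At the kinetochore and centromere 7 of 8 genes were called lower, beside 8.2% of all genes tested. NDC80, which binds microtubules, was at 249, 153 and 231 CPM with vehicle and 73.2, 49.1 and 73.0 CPM with carmofur. NUF2, its partner in the same complex, was at 272, 290.3 and 299 CPM with vehicle and 71.2, 62.1 and 46.9 CPM with carmofur. KNL1, the scaffold that recruits BUB1, was at 234, 201 and 221 CPM with vehicle and 70.1, 58.4 and 44.3 CPM with carmofur. In these genes the vehicle libraries of U251T were above the U251P libraries and the carmofur libraries were below them. CENPE, a kinesin that carries chromosomes to the spindle equator, was at 583, 549 and 641 CPM with vehicle and 161, 111 and 151 CPM with carmofur. CENPF was at 1129, 1141 and 1182 CPM with vehicle and 279, 247 and 141 CPM with carmofur. Both fell clearly outside the vehicle range, with log2 fold changes of -2.08 (SE 0.153) and -2.33 (SE 0.177) and adjusted p values of 8.28e-08 and 9.5e-08. SPC25 and SGO2, a protector of centromere cohesion, fell as well, with log2 fold changes of -1.88 and -2.39. The SPC25 value rests on few carmofur counts and ran from -2.71 to -1.62 when 1 library was left out. SGO1, the related shugoshin protein of mitosis, was at 82.3, 74.9 and 58.3 CPM with vehicle and 55.7, 53.8 and 23.5 CPM with carmofur. It was not called, with a log2 fold change of -0.63 (SE 0.254) and an adjusted p of 0.101, and its carmofur replicate 3 lay well below the other carmofur libraries. SGO1 was called with no filter on low counts (adjusted p = 0.0451) and with the replicate block (0.0114).

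In the chromosomal passenger complex, which places Aurora B at centromeres, CDCA8 and INCENP were called lower, beside 8.2% of all genes tested. BIRC5 was too low to test, with counts of 1, 6 and 0 with vehicle and 0, 1 and 1 with carmofur. CDCA8 was at 20.8, 17.0 and 14.1 CPM with vehicle and 5.16, 1.85 and 2.61 CPM with carmofur. INCENP, the scaffold subunit, was at 54.6, 49.0 and 60.1 CPM with vehicle and 32.0, 30.6 and 18.2 CPM with carmofur. INCENP was among the smaller falls, with a log2 fold change of -0.91 (SE 0.251) and an adjusted p of 0.017. Without U251T carmofur replicate 3 it was not called (log2 fold change -0.78, adjusted p = 0.0567, in a range of adjusted p from 0.00191 to 0.115 over the alternatives).

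All 9 genes of spindle microtubules were called lower in U251T, beside 8.2% of all genes tested. HMMR (ENSG00000072571, chromosome 5, 163460203 to 163491945 on GRCh38), a spindle assembly factor that is also a hyaluronan receptor, was at 346, 383 and 408 CPM with vehicle and 59.8, 62.1 and 46.9 CPM with carmofur. ASPM (ENSG00000066279, chromosome 1, 197084128 to 197146694 on GRCh38), a protein of the spindle poles, was at 614, 573 and 641 CPM with vehicle and 139, 119.6 and 102 CPM with carmofur. In both genes the 3 libraries of each group were close together and the groups were far apart. The log2 fold change was -2.71 (SE 0.168) for HMMR and -2.31 (SE 0.147) for ASPM, and both had an adjusted p of 2.69e-08, the lowest among the 45 genes. TPX2, the activator of AURKA on the spindle, was at 382, 339 and 339 CPM with vehicle and 129.9, 132 and 91.2 CPM with carmofur. KIF11, the kinesin that pushes the poles apart, was at 135, 133 and 115 CPM with vehicle and 35.1, 29.7 and 26.1 CPM with carmofur. These too had no overlap between groups. KIF2C, NUSAP1, CKAP2L and DLGAP5, which act on microtubule ends and bundles, had log2 fold changes from -1.99 (KIF2C) to -1.33 (NUSAP1). CKAP2, a spindle protein, was at 268, 224 and 314 CPM with vehicle and 213, 154 and 198 CPM with carmofur. Its fall was the smallest, with a log2 fold change of -0.50 (SE 0.160) and an adjusted p of 0.0374. The call did not hold when U251T vehicle replicate 1 or 3 or carmofur replicate 2 or 3 was left out, where the log2 fold change was -0.52, -0.42, -0.39 and -0.53 and the adjusted p 0.0883, 0.118, 0.15 and 0.0772 (0.000502 to 0.189 over the alternatives). DESeq2 did not call CKAP2 either (-0.51, adjusted p = 0.0603).

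The 7 genes of chromosome structure were all called lower, beside 8.2% of all genes tested, with log2 fold changes from -2.11 to -1.57. TOP2A (ENSG00000131747, chromosome 17, 40388516 to 40417950 on GRCh38) was at 2209, 1885 and 2074 CPM with vehicle and 637, 488 and 495 CPM with carmofur. Its vehicle libraries were all far above its carmofur libraries, and the fit gave -1.93 (SE 0.133) on the log2 scale, at an adjusted p of 5.29e-08. SMC2 and SMC4 are the ATPase subunits of condensin, the complex that compacts chromosomes. SMC2 was at 1013, 1001 and 1099 CPM with vehicle and 372, 323 and 355 CPM with carmofur, and SMC4 was at 1691, 1968 and 1853 CPM with vehicle and 621, 569 and 560.4 CPM with carmofur. NCAPG, a subunit of condensin I, was at 245, 193 and 196 CPM with vehicle and 65.0, 46.4 and 28.7 CPM with carmofur. No carmofur library of these condensin genes reached the lowest vehicle library. MKI67 was at 59.2, 46.1 and 76.0 CPM with vehicle and 16.5, 17.6 and 26.1 CPM with carmofur, and its log2 fold change was -1.62 (SE 0.283). NCAPH and KIF4A, a chromosome-bound kinesin, had log2 fold changes of -2.03 and -2.11.

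Among the 8 genes grouped here under cytokinesis 7 were called lower, beside 8.2% of all genes tested. ANLN, which links actin and myosin at the cleavage furrow, was at 1251, 1342 and 1249 CPM with vehicle and 410.4, 301 and 276 CPM with carmofur. ECT2, the exchange factor that activates RhoA there, was at 208, 177 and 216 CPM with vehicle and 42.3, 41.7 and 33.9 CPM with carmofur. PRC1, which bundles the microtubules of the midzone, was at 60.0, 87.0 and 60.1 CPM with vehicle and 16.5, 22.3 and 10.4 CPM with carmofur. All 3 had carmofur libraries below the vehicle range. KIF23, the kinesin of centralspindlin, was at 245, 225 and 283 CPM with vehicle and 84.6, 60.3 and 44.3 CPM with carmofur. DEPDC1, whose part in cytokinesis was not examined here, was at 79.2, 74.5 and 60.1 CPM with vehicle and 7.22, 12.1 and 7.82 CPM with carmofur. Its log2 fold change of -2.94 (SE 0.300), adjusted p 2.67e-06, was the largest fall of the 45 genes. KIF20A, a kinesin of the midzone, was at 43.8, 36.6 and 60.1 CPM with vehicle and 8.25, 6.49 and 5.21 CPM with carmofur. It too had no overlap between its groups. KIF20A and KIF14, another kinesin of cytokinesis, had log2 fold changes of -2.67 and -2.07. RACGAP1 was at 20.0, 15.6 and 8.83 CPM with vehicle and 11.3, 3.71 and 0 CPM with carmofur. Its groups overlapped, and it was not called, with a log2 fold change of -1.38 (SE 0.551) and an adjusted p of 0.0978. Without U251T carmofur replicate 1, its highest carmofur library, the log2 fold change was -2.51 with an adjusted p of 0.0349 (0.0112 to 0.269 over the alternatives). RACGAP1 was also called with no filter on low counts (adjusted p = 0.0391), with the replicate block (0.0112) and with all 12 libraries in a single fit (0.0354).

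**Figure D4:**
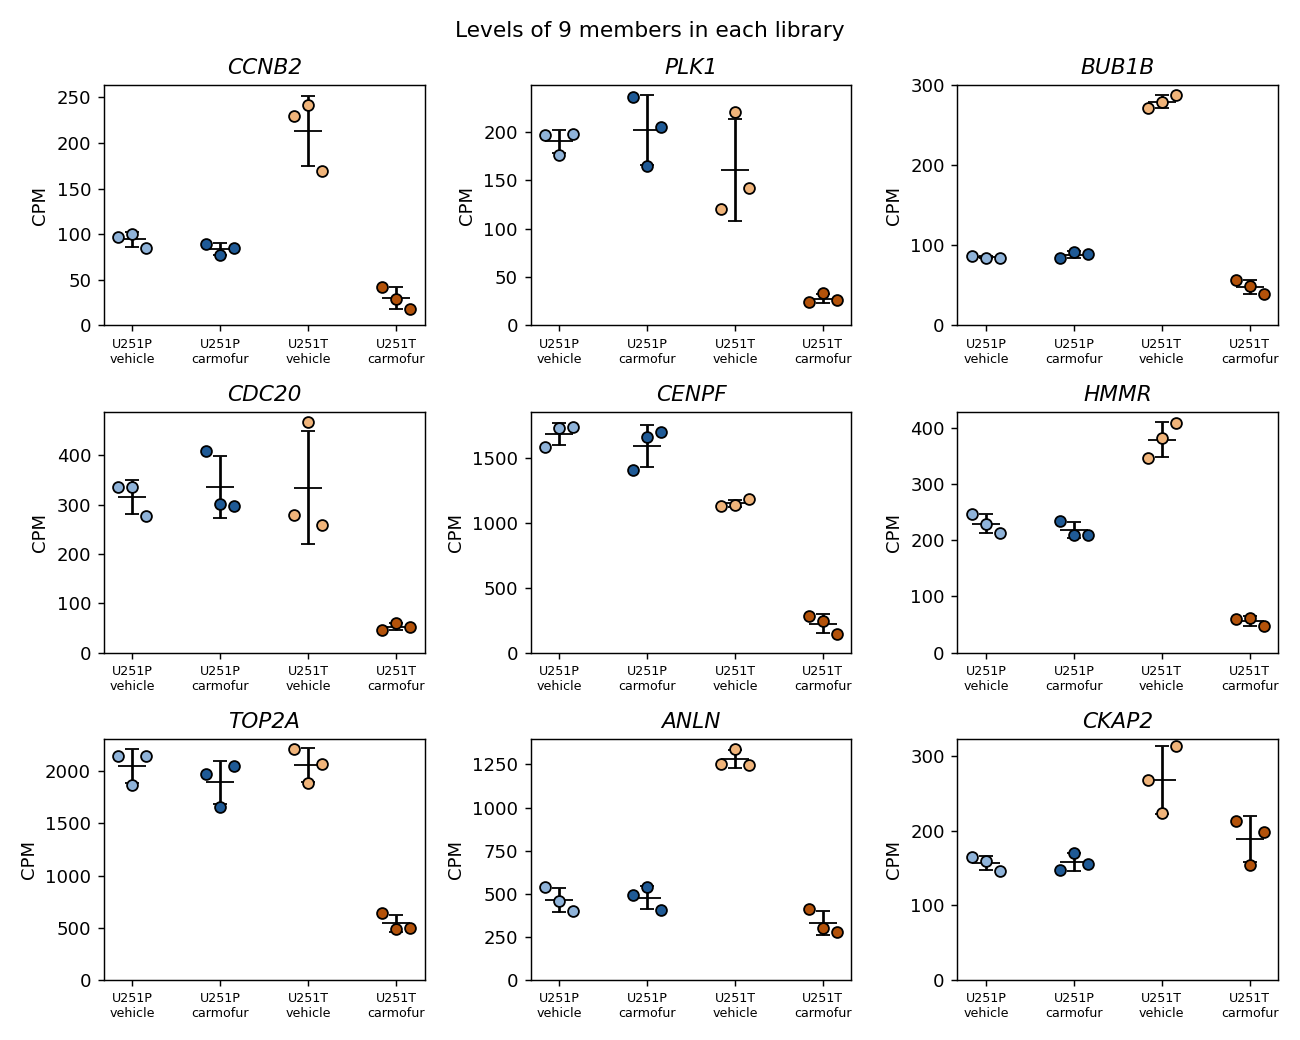
Levels of 9 genes in CPM in each library (points) with the group mean and SD (line and bars, n = 3), each panel with its own axis from 0. The U251T carmofur libraries are below the U251T vehicle libraries in all 9 panels, by the least in CKAP2, and the U251P groups lie close together.

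Other genes of the pathway were taken from lists, whose calls in U251T stand beside 8.2% lower and 8.88% higher over all 7204 genes tested. Of 66 further mitosis genes in U251T, 32 of 40 tested were called lower and 0 higher (median log2 fold change -1.43). Those with the smallest p were HMGB2, LMNB1, KIF20B, CEP55, STMN1 and KIF15, with log2 fold changes from -2.38 (HMGB2) to -1.66 (STMN1). Of 53 genes of DNA replication and S phase, 19 of 29 tested were called lower and 0 higher (median log2 fold change -1.12), led by DUT, CDK2, RRM1, MCM3, MCM7 and CDC6 with log2 fold changes from -2.08 (CDK2) to -1.06 (RRM1). Of 10 cohesin genes, 6 of 9 tested were called lower and 1 higher (median log2 fold change -0.55). RAD21, SMC3, SMC1A, PDS5A, STAG1 and PDS5B were lower, and NIPBL, the cohesin loader, was the gene called higher, with log2 fold changes from -1.14 (RAD21) to 0.61 (NIPBL). The mitosis and spindle genes thus had the lowest median of these lists, and whether the lists differ was not tested. Members and lists were chosen with earlier results of these data known, so that this order may have been favored in advance.

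Of 50 regulators of mitotic entry and exit, 13 of 40 tested in U251T were called lower and 2 higher (median log2 fold change -0.55), beside 8.2% lower and 8.88% higher of all genes tested. CDKN1A, the p21 inhibitor of cyclin-dependent kinases, was at 49.2, 30.5 and 24.7 CPM with vehicle and 155, 135 and 203 CPM with carmofur in U251T. Each carmofur library was above the vehicle range, and the fit gave 2.16 (SE 0.234, adjusted p = 4.95e-06). E2F1, which drives S phase genes, had a log2 fold change of -1.40 (SE 0.175, adjusted p = 2.5e-05). WEE1, the kinase that inhibits CDK1, had -1.04 (SE 0.194, adjusted p = 0.00106), and LIN54, the DNA-binding subunit of MuvB, -1.04 (SE 0.297, adjusted p = 0.0207). The others with the smallest p, CDKN3, E2F8, CDKN2C and LIN9, were lower, with log2 fold changes of -1.71, -1.91, -2.73 and -1.38. MYBL2, the B-MYB partner of MuvB, was too low to test, at 3.84, 4.61 and 5.30 CPM with vehicle and 2.06, 7.42 and 5.21 CPM with carmofur. In U251P none of these lists had a call by edgeR, and their medians ranged from -0.06 (cohesin) to 0.03 (other mitosis genes). Unadjusted p under 0.05 was reached there by 2 of the 66 other mitosis genes, 1 of 46 regulators, 0 of 53 replication genes and 0 of 10 cohesin genes, and DESeq2 called 0 of the 11426 genes it tested. CDKN1A was at 12.2, 21.5 and 29.8 CPM with vehicle and 16.1, 17.3 and 29.2 CPM with carmofur in U251P, with overlapping groups and a log2 fold change of -0.03. E2F1, WEE1, LIN54 and MYBL2 had log2 fold changes of 0.24, 0.21, -0.24 and -0.09 in U251P, each with an adjusted p of 0.999 from edgeR.

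**Figure D5:**
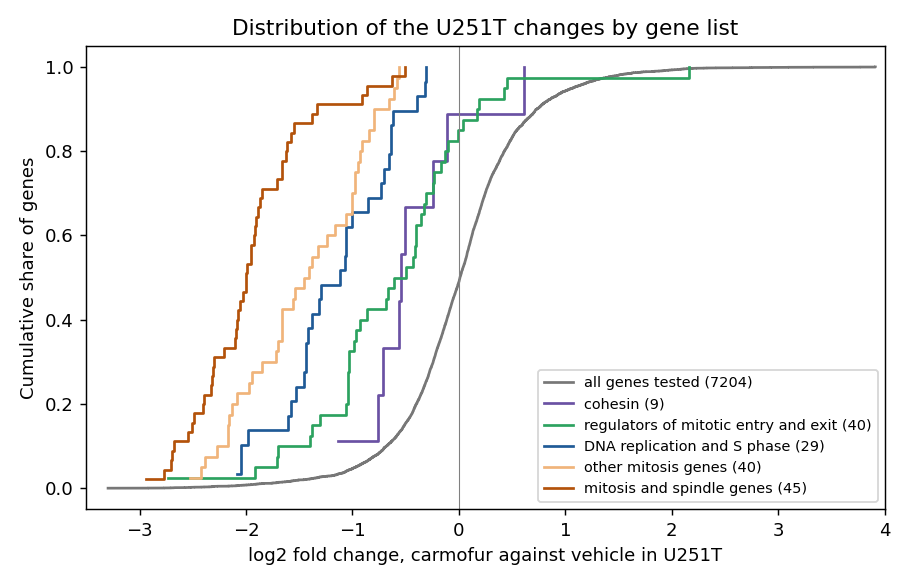
Cumulative share of genes (vertical axis) by log2 fold change of carmofur against vehicle in U251T (horizontal axis) for the mitosis and spindle genes, 4 other lists and all 7204 genes tested; numbers in the key are genes tested. The curve of the 45 mitosis and spindle genes lies furthest left, with a median of -2.00 against 0.01 for all genes. Members and lists were chosen with earlier results of these data known.

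The difference of the carmofur effect between the lines was tested as an interaction in a fit over all 12 libraries. All 52 genes were tested there, because U251P counts carried those that are low in U251T. By edgeR the effect was lower in U251T than in U251P for 41 of the 52 at an adjusted p under 0.05, beside 2.49% of the 13070 genes tested, and higher for 0, beside 1.8%. The median difference was -2.08 for the 52 genes and -0.02 for all genes tested. With DESeq2 the median was -2.01 for the 52 genes and 0.17 for all genes. Of the genes called in either direction, 58.0% were lower, and 47.1% were with total-count scaling, which was chosen after seeing the data. The 11 genes not called were CDC25C, AURKA, AURKB, MAD2L1, ESPL1, BIRC5, PTTG1, SGO1, INCENP, CKAP2 and RACGAP1. Among them RACGAP1 was called without U251P vehicle replicate 1 (-1.83, adjusted p = 0.0301), U251P carmofur replicate 3 (-1.77, 0.0373), U251T vehicle replicate 3 (-1.85, 0.0159) or U251T carmofur replicate 1 (-2.83, 0.0132), in a range of adjusted p from 0.0124 to 0.213 over the alternatives. Without U251T vehicle replicate 3, PTTG1 (-1.13, adjusted p = 0.0252, range 0.0185 to 0.244) and MAD2L1 (-2.47, adjusted p = 0.0479, range 0.0479 to 0.729) were called as well. DESeq2 also called PTTG1 (adjusted p = 0.0215) and RACGAP1 (0.0281), as did the fit with the replicate number as a block (0.0405 and 0.0124). Upper-quartile normalization called PTTG1 (0.048), the fit with no filter on low counts called RACGAP1 (0.0247), and the fit of genes with at least 10 counts in every library called CKAP2 (0.0382).

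Genes with the smallest p or the most extreme differences in this test had these levels in U251P. HMMR was at 247, 229 and 213 CPM with vehicle and 235, 210.3 and 209 CPM with carmofur. BUB1B was at 87.3, 84.7 and 84.2 CPM with vehicle and 83.9, 92.1 and 89.5 CPM with carmofur, and ASPM was at 586, 592 and 617 CPM with vehicle and 552, 683 and 650.0 CPM with carmofur. In these genes the U251P groups overlapped, against a clear gap in U251T. NUF2 was at 164, 156 and 156 CPM with vehicle and 168, 176 and 179 CPM with carmofur, with each carmofur library above the vehicle range, as in 3.04% of all genes tested in U251P. Its log2 fold change in U251P was 0.16 and was not called, with an adjusted p of 0.999 from edgeR. CCNA2 was at 90.2, 105 and 84.7 CPM with vehicle and 96.8, 82.3 and 85.9 CPM with carmofur, and ECT2 was at 234, 242 and 201 CPM with vehicle and 213, 229 and 204 CPM with carmofur. Both overlapped in U251P. CENPE was at 560.2, 536 and 531 CPM with vehicle and 472, 583 and 514 CPM with carmofur. CDC20 was at 336, 335 and 276 CPM with vehicle and 408, 302 and 298 CPM with carmofur, and DEPDC1 was at 162, 188 and 144 CPM with vehicle and 172, 159 and 152 CPM with carmofur. The highest CENPE and CDC20 libraries of U251P were carmofur libraries. KIF20A was at 83.3, 80.7 and 60.2 CPM with vehicle and 93.4, 86.0 and 67.1 CPM with carmofur, where its difference of -2.88 was among the lowest 3 beside DEPDC1 (-3.02) and CDC20 (-2.89). The differences closest to 0 were those of AURKA (-0.33), CKAP2 (-0.60) and SGO1 (-0.70). The AURKA difference ran from -1.36 to 0.44 when 1 library was left out, and took the other sign without U251T vehicle replicate 1 or carmofur replicate 2. CKAP2 was at 165, 159 and 146 CPM with vehicle and 148, 171 and 156 CPM with carmofur, and SGO1 was at 37.5, 36.7 and 28.5 CPM with vehicle and 36.8, 36.1 and 27.5 CPM with carmofur, with overlapping groups.

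Without drug, the 52 genes differed between the lines in both directions, as did all genes tested. In the vehicle libraries 25 of 52 were lower in U251T than in U251P by edgeR, beside 47.6% of the 12047 genes tested, and 14 were higher, beside 39.3%. The median log2 difference was -0.33 for the 52 genes and -0.33 for all genes. In this fit the median and the share called lower, 48.1% of the 52, were thus near the background. Among genes with at least 10 counts in every library, 28 of 42 were lower and 8 higher, beside 1874 and 1863 of 4823 genes, with medians of -0.67 and 0.01. With no filter on low counts the medians were -0.69 and -1.54, so that the 52 genes were above or below the background depending on the filter. The log2 difference took the other sign under an alternative in 9 of the 52 genes, and 7 of these were called either in the fit given first or in the alternative that gave the other sign, CDC20 among them without U251T vehicle replicate 2 (-0.41, adjusted p = 0.0174, range 0.0157 to 0.965). PLK1 was called under some alternatives too, among them without that library (-0.75, adjusted p = 5.28e-05, range 5.28e-05 to 0.765). BIRC5 (-7.70), AURKA (-6.48) and MKI67 (-4.99) had the lowest log2 differences. BIRC5 and AURKA had few U251T counts and passed the filter through the U251P libraries, so that their exact values are uncertain. Their differences ran from -9.23 to -7.44 and from -7.12 to -5.97 when 1 library was left out. CKAP2L (2.16), SMC2 (1.86) and BUB1B (1.67) had the highest. None of these 6 changed its call or direction under the alternatives in which it was tested. BIRC5 was at 334, 321 and 283 CPM in U251P and 0.769, 2.13 and 0 CPM in U251T in the vehicle libraries. AURKA was at 227, 191 and 218 CPM in U251P and 4.61, 1.42 and 1.77 CPM in U251T, and AURKB at 164, 171 and 188 CPM in U251P and 10.8, 8.16 and 7.07 CPM in U251T. Each U251T library of these 3 genes was far below every U251P library. MKI67 was at 1760.5, 1651 and 1841 CPM in U251P and 59.2, 46.1 and 76.0 CPM in U251T, and PTTG1 was at 283, 277 and 265 CPM in U251P and 24.6, 29.1 and 24.7 CPM in U251T. NUSAP1 was at 374, 411 and 399 CPM in U251P and 48.4, 43.7 and 35.3 CPM in U251T. These 3 were lower in every U251T library than in any U251P library. KIF2C was at 148, 177 and 150.3 CPM in U251P and 20.8, 17.7 and 14.1 CPM in U251T, and PRC1 at 481, 436 and 386 CPM in U251P and 60.0, 87.0 and 60.1 CPM in U251T. CDK1 was at 292, 306 and 280.2 CPM in U251P and 49.2, 61.8 and 61.8 CPM in U251T. The lines did not overlap in these genes either. Higher in U251T were CKAP2L, at 97.7, 93.2 and 91.6 CPM in U251P and 477, 395 and 438 CPM in U251T, and SMC2, at 309, 282 and 243 CPM in U251P and 1013, 1001 and 1099 CPM in U251T. BUB1B was at 87.3, 84.7 and 84.2 CPM in U251P and 271, 279.7 and 288 CPM in U251T. TOP2A, a marker of proliferating cells as MKI67 is, was at 2144, 1867 and 2148 CPM in U251P and 2209, 1885 and 2074 CPM in U251T, where the lines overlapped. Its log2 difference was -0.05 and it was not called, but it was called lower with at least 10 counts in every library (-0.68, adjusted p = 0.000278) and with no filter on low counts (-0.42, adjusted p = 0.00434, range 0.000278 to 0.993).

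Copies of the genes elsewhere in the genome could share reads with them. GENCODE release 29 lists 21 such copies for 14 of the 52 genes, found by name with KIF4B, PTTG2 and PTTG3P added by hand, most of them processed pseudogenes. Their counts summed to 29 over the 6 U251P libraries and 1494 over the 6 U251T libraries. KIF4B, an intronless copy of KIF4A, had 1 and 4 counts in U251P (vehicle and carmofur, 3 libraries summed) and 362 and 55 in U251T. The pseudogene PTTG3P had 2 and 1 counts in U251P and 377 and 92 in U251T, and PTTG2 had 4 and 0 counts in U251P and 106 and 22 in U251T. PTTG1 itself had 128 and 35 counts in U251T. NCAPGP1 had 3 and 3 counts in U251P and 106 and 17 in U251T. Of the 21 copies, 7 had counts in U251P and 12 in U251T, whose carmofur libraries held fewer counts in all. CKAP2P1 had 0 and 1 counts in U251P and 101 and 23 in U251T, and CCNB2P1 had 0 and 1 counts in U251P and 100 and 9 in U251T. CDC20P1 had 3 and 6 counts in U251P and 82 and 9 in U251T. The U251T values of KIF4A, PTTG1, NCAPG, CKAP2, CCNB2 and CDC20 are uncertain to that extent. In addition, 27 of the 52 genes are overlapped by an annotated gene on the other strand, and whether the counting used strand was not given in the sources used here. EXOSC9, which overlaps CCNA2, had 902 and 1077 counts in U251P and 307 and 146 in U251T, and BRD8, which overlaps KIF20A, had 877 and 990 counts in U251P and 516 and 122 in U251T.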

How the data were processed

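The authors made QuantSeq FWD libraries and used the BlueBee pipeline of Lexogen for trimming and mapping of single-end reads. The deposited table holds counts, as whole numbers per Ensembl gene and not normalized, from which CPM were computed here. The submitters' processing notes name the build hg38, while the annotation release and counting tool were not given in the sources used here. Whether PCR copies were removed was not given either, so that intervals cover counting error only.

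The carmofur effect in each line, the lines in vehicle and the interaction over 12 libraries were fitted in R (version 4.3.3) with edgeR (version 4.0.16; quasi-likelihood F test), TMM, filterByExpr and Benjamini-Hochberg adjustment over all genes tested at 0.05. Standard errors are the size of the log2 fold change over the root of the F statistic. The 95% intervals use normal quantiles of them and are too narrow for 3 libraries against 3. The biological coefficient of variation was 0.124 in U251P and 0.154 in U251T. Each pair of libraries of a group differed beyond counting noise (chi-square per degree of freedom 1.72 to 11.5), which does not tell separate cultures from repeated preparations. An exact permutation test of 3 libraries against 3 cannot give a two-sided p under 0.1, so that p-values come from fits across all genes.

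The members and the lists were chosen with earlier results of these data known. Values in every library are given for genes set by role, for the called genes up to 10 in order of p, and for the 3 largest and 3 smallest log2 fold changes. List genes are named up to 6 a list in order of p, with CDKN1A, MYBL2, E2F1, WEE1 and LIN54 in any case. For the cohesin list every called gene is named. The motif search, the table of copies and the choice of the CCNB2 and PLK1 promoters were made after values were seen. Alternatives were DESeq2 (version 1.42.0), upper-quartile normalization, no filter, a strict filter (at least 10 counts in every library), an adjusted p under 0.1, the replicate block, a joint fit of all 12 libraries and leaving out each library; total-count scaling and the fit without the shallowest U251T libraries were chosen after seeing the data. Promoters came from RefSeq (GRCh38.p14) and positions from GENCODE release 29. Figures were drawn in Python (version 3.11.15) with matplotlib (version 3.10.9). The edgeR fit of the carmofur effect in each line was tried on simulated counts, and the other steps were not.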

Additional observations from a re-analysis of the deposited data

Results flagged for a closer look

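The carmofur effect differed between the lines, by edgeR's interaction test, in 41 of the 52 genes, and each was lower in U251T. Over all 13070 genes tested, 2.49% were called lower and 1.8% higher. The values are log2 differences, the effect in U251T minus the effect in U251P. For the cyclins and CDK1 they were -2.52 for CCNA2, -1.96 for CCNB1, -2.70 for CCNB2 and -2.30 for CDK1. For the transcription factor the value was -2.15 for FOXM1. For the mitotic kinase outside the checkpoint it was -2.73 for PLK1. Checkpoint genes had -1.94 for BUB1, -2.62 for BUB1B and -1.83 for TTK. Genes of anaphase onset had -2.89 for CDC20 and -2.30 for UBE2C. At the kinetochore and centromere the differences were -1.77 for NDC80, -2.42 for NUF2, -1.84 for SPC25, -2.07 for KNL1, -2.11 for CENPE, -2.32 for CENPF and -2.43 for SGO2. In the passenger complex it was -2.70 for CDCA8. The spindle genes had -1.52 for TPX2, -2.22 for KIF11, -2.09 for KIF2C, -2.46 for ASPM, -2.71 for HMMR, -1.35 for NUSAP1, -1.69 for CKAP2L and -1.85 for DLGAP5. Genes of chromosome structure had -1.89 for TOP2A, -1.72 for MKI67, -1.60 for SMC2, -1.74 for SMC4, -2.14 for NCAPG, -1.93 for NCAPH and -2.13 for KIF4A. Genes grouped under cytokinesis had -2.08 for ANLN, -2.31 for ECT2, -1.98 for PRC1, -1.97 for KIF23, -2.88 for KIF20A, -2.13 for KIF14 and -3.02 for DEPDC1. Adjusted p-values ranged from 2.98e-09 (HMMR) to 0.038 (FOXM1). The FOXM1 call rests on few U251T counts, and its difference ran from -3.19 to -1.21 when 1 library was left out. The call did not hold when any of 7 libraries was left out, among them U251T vehicle replicate 2 (log2 difference -1.21, adjusted p = 0.513). For U251P vehicle replicates 2 and 3 and carmofur replicates 1 and 2 the adjusted p was 0.0671, 0.056, 0.0632 and 0.0589, and for U251T carmofur replicates 2 and 3 it was 0.16 and 0.112, with 0.00859 to 0.513 as the range of all alternatives. NUSAP1 was not called without U251T carmofur replicate 2 (log2 difference -1.03, adjusted p = 0.0911, with 0.000381 to 0.0911 as the range of all alternatives). The differences of SPC25 and CDCA8 ran from -2.67 to -1.57 and from -3.35 to -2.34 when 1 library was left out.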

How the results depend on the processing

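In U251P, 0 of the 52 genes were called under each alternative, and leaving out each library in turn gave medians from -0.04 to 0.03. Over all genes, 16 were called lower and 3 higher with no filter on low counts, 1 lower with the replicate block, and 0 to 1 lower when a library was left out (1 without U251P carmofur replicate 3). In U251P, 31 of the 52 log2 fold changes took the other sign under an alternative, none of them called. In U251T, no tested gene changed sign. The count called lower was 40 to 43 without 1 library (median -2.21 to -1.91), 41 with DESeq2, 42 with upper-quartile normalization and 26 with at least 10 counts in every library, where fewer genes were tested. PTTG1, RACGAP1 and SGO1 were called under some alternatives, and CKAP2 and INCENP were not called under some. With no filter and with all 12 libraries in a single fit all 52 genes were tested and 45 called lower, among them FOXM1 and none of the other 6 genes not tested otherwise. Over all genes in U251T, 406 to 571 were called lower and 431 to 624 higher without 1 library, and 343 and 359 without the shallowest library of each group, where fewer libraries were fitted. For the lines in vehicle, the median of the 52 genes was -0.44 with DESeq2 (-0.45 over all genes), -0.69 with no filter (-1.54), -0.67 with at least 10 counts in every library (0.01), -0.49 with all 12 libraries in a single fit (-0.43), -0.54 to -0.36 without 1 library and -0.44 without the shallowest U251T library. With at least 10 counts in every library 42 of the 52 were tested, of which 28 were called lower and 8 higher, and of 4823 genes in all 1874 were lower and 1863 higher. There CDC20 (-0.55), NDC80 (-0.047), CENPE (-0.56), INCENP (-0.56), KIF11 (-0.46), SMC4 (-0.38) and NCAPG (-0.35) took the other sign, as CDC20 did without U251T vehicle replicate 2 (-0.41, in a range from -0.41 to 0.21 without 1 library). For the difference between the lines, 2 of the 52 genes took the other sign under an alternative, neither of them called. These were AURKA (-1.36 to 0.44 without 1 library) and BIRC5 (-1.60 to 0.58). In the fits without 1 library 39 to 44 of the 52 were called lower (median -2.27 to -1.94). With at least 10 counts in every library 26 of the 52 were tested and 26 called lower, beside 327 lower and 262 higher of 4048 genes in all. Over all genes 402 were called higher with DESeq2, and 215 to 473 lower and 152 to 248 higher without 1 library (fewest without U251T carmofur replicate 1). With library sizes scaled by TMM over all 12 libraries, chosen after seeing the data as was total-count scaling, the mean sums were 17539 CPM and 17535 CPM in U251P (vehicle and carmofur) and 13369 CPM and 3406 CPM in U251T, where the vehicle libraries ranged from 11670.4 to 14919 CPM. Where no construction of the alternative shows it, the cause was not tested. In U251T, 7 of the 52 genes had too few counts to be tested.

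Libraries of the same replicate number share only that number. The correlation of their deviations from the group means was 0.23, -0.03 and 0.29 for replicates 1, 2 and 3 in U251P and 0.08, 0.33 and 0.08 in U251T, and not every library correlated best with its own number. With the replicate block, 45 of the 45 genes tested in U251T were called lower, and over all genes 1015 were lower and 1063 higher.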
